A study of Mus musculus with 8 samples.

Results

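The genes described here encode the mouse MHC class II molecules and the proteins that load them with peptide. They were chosen by symbol: the chains H2-Aa, H2-Ab1 and H2-Eb1, the invariant chain Cd74, the loading factors H2-DMa, H2-DMb1, H2-DMb2, H2-Oa and H2-Ob, and the transactivator Ciita. All 10 were found among 54446 Ensembl gene rows, of which 21197 had a count in at least 1 library, and all 10 had enough counts to enter the test. Class II transcripts averaged 2.45 ± 0.22% of the counts outside the mitochondrial genome in SiglecFhi/CD101+ eosinophils (SD, n = 2), 4.84 ± 1.64% in Siglec-Fint/CD101- eosinophils (SD, n = 2) and 9.04 ± 3.36% in resident eosinophils (SD, n = 4). None of the 10 genes passed the test across all genes in any of the 4 comparisons. Every one of the 10 had a lower fitted level in each subset than in resident eosinophils. Of all genes tested, 63.9% were also lower in SiglecFhi/CD101+ and 66.9% in Siglec-Fint/CD101-.

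The study sequenced RNA of eosinophils sorted from C57BL/6 mice; its title is about resident eosinophils of the lung, and its design text names a mouse asthma model. The samples were 2 libraries of SiglecFhi/CD101+ eosinophils, 2 libraries of Siglec-Fint/CD101- eosinophils and 4 libraries of resident eosinophils. All 8 share the strain. The labels give no treatment, allergen, age, sex or animal for any sample, and they do not say which tissue each sort came from, whether mice were pooled, or whether each replicate is its own mouse, so p-values here speak for the variation among the sequenced libraries, part or all of which may be technical. The libraries were made by CEL-Seq, a method that reads short tags near the 3′ ends of transcripts.

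An MHC class II molecule is a pair of an alpha and a beta chain that shows peptides from the endosome to CD4+ T cells. The invariant chain fills the groove of the new molecule and steers it to the endosome, where the H2-M dimer exchanges the last piece of the invariant chain for peptide and the H2-O dimer restrains H2-M. The genes share a promoter module, the S, X and Y boxes, which is occupied by the RFX, CREB and NF-Y factors and read by CIITA, the transactivator without which class II genes are barely transcribed. Dendritic cells, B cells and many macrophages carry abundant class II, and eosinophils have been described to carry it under some activating conditions.

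The promoter module is printed here because class II genes are known to share it. Windows of 6 genes that hold at least its Y box letters are given. The windows are 67 bases long, are written 5′ to 3′ on the gene's own strand, and come from RefSeq promoter sequences of GRCm38.p6 on chromosome 17. The positions are chr17:34287857-34287923 on the minus strand for H2-Aa, and on the plus strand chr17:34305756-34305822 for H2-Eb1, chr17:34153078-34153144 for H2-DMb1, chr17:34145107-34145173 for H2-DMb2, chr17:34092284-34092350 for H2-Oa and chr17:34238796-34238862 for H2-Ob. Capitals mark the letters searched for: TGATTGG for the Y box, AACNNATG directly followed by ATG for the X box, and the cyclic AMP response element TGACGTCA.
H2-Aa: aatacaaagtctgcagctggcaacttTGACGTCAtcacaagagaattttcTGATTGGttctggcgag
H2-Eb1: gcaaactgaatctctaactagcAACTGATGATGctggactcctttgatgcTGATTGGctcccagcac
H2-DMb1: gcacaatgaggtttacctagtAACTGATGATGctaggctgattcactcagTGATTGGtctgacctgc
H2-DMb2: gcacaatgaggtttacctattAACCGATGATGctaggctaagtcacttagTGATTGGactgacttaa
H2-Oa: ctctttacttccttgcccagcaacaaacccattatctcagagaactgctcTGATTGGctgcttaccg
H2-Ob: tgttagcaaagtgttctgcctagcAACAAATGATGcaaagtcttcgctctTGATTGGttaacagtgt

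Both strands of 32851 RefSeq promoter windows of 300 bases were searched, and 7 of the 10 class II genes had a window there. TGATTGG was in 6 of those 7 genes and in 7.82% of all windows. The X box letters were in 4 of them and in 0.137% of all windows. An X box followed 5 to 30 bases later by a Y box occurred in 4 windows of 32851 (0.0122%), those of H2-Eb1, H2-DMb1, H2-DMb2 and H2-Ob. H2-Aa held TGACGTCA, found in 1.79% of windows, before its Y box. The letters were chosen with these windows in view, so the shares describe them and test nothing. H2-DMa had a window without any of the searched letters, and H2-Ab1, Cd74 and Ciita were not in the promoter table. On chromosome 17 of GRCm38, 8 of the genes lay within 224335 bases, between positions 34092340 and 34316674. In order along the chromosome they were H2-Oa, H2-DMa, H2-DMb2, H2-DMb1, H2-Ob, H2-Ab1, H2-Aa and H2-Eb1, with H2-Aa on the minus strand and the other 7 on the plus strand.

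The libraries of the subsets were shallower than the resident ones. Total gene counts were 3109428 and 1513517 in SiglecFhi/CD101+ eosinophils, 1517159 and 2990294 in Siglec-Fint/CD101- eosinophils and 5600610 to 11583550 in resident eosinophils. Transcripts of the mitochondrial genome took 82.2% and 70.6% of the SiglecFhi/CD101+ counts, 69.9% and 83.9% of the Siglec-Fint/CD101- counts and 38.6% to 61.8% of the resident counts. The counts left outside it were 444902 to 552121 in the 4 subset libraries and 2137819 to 5296468 in the resident libraries. Depth and group therefore cannot be told apart by design, and values with every library thinned to 444902 counts are given with the comparisons.

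The labelled cell type was checked against 13 eosinophil markers, which differed among themselves. Raw counts below are not scaled for depth, and the resident libraries were deeper. Among them, Prg3, which encodes a major basic protein homologue, had 0 counts in every library, and Epx, the eosinophil peroxidase, had 25 counts in 1 resident library and 0 elsewhere; genes other cells use widely, such as Ctsd, were also listed at or near 0, so these zeros may not mean absence of the transcript. Prg2, the major basic protein, had 73 and 385 counts in SiglecFhi/CD101+, 1 and 3 counts in Siglec-Fint/CD101- and 63 to 121 counts in resident eosinophils. Alox15, a lipoxygenase of eosinophils and macrophages, had 76 and 99 counts in SiglecFhi/CD101+, 14 and 74 counts in Siglec-Fint/CD101- and 1 to 217 counts in resident eosinophils. Per library size, both were higher in SiglecFhi/CD101+ than in resident eosinophils, by 4.00 ± 0.95 and 3.36 ± 1.32 on the log2 scale (SE), without passing the test (adjusted p of 0.118 and 0.246, edgeR). Siglecf, the gene of the surface lectin used in the sort, had 19 and 44 counts in SiglecFhi/CD101+ eosinophils, 0 in both Siglec-Fint/CD101- libraries and 61 to 559 in resident eosinophils. Cd101 had 2 and 1 counts in the libraries labelled SiglecFhi/CD101+, 0 and 1 counts in the libraries labelled Siglec-Fint/CD101- and 60 to 504 counts in resident eosinophils, so its transcript does not follow the labels of the sort on its protein. Ear2, an eosinophil ribonuclease, had 88 and 196 counts in SiglecFhi/CD101+, 210 and 149 counts in Siglec-Fint/CD101- and 1348 to 3706 counts in resident eosinophils. Scaled for library size, Ear2 stood at 46.65 and 119.5 CPM in SiglecFhi/CD101+, 152.7 and 92.5 CPM in Siglec-Fint/CD101- and 125.3 to 291.3 CPM in resident eosinophils. Il5ra had 0 counts in every subset library and 0 to 57 in resident eosinophils. Ccr3 had 8 and 0 counts in SiglecFhi/CD101+, 0 and 33 in Siglec-Fint/CD101- and 0 to 51 in resident eosinophils. Gata1 had 0 and 7, 0 and 0, and 0 to 109 counts in the same order of groups. Cebpe had 0 and 0, 6 and 1, and 0 to 1 counts.

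The alpha and beta chains carried most of the class II signal together with Cd74: these 4 genes held 94.6 to 98.5% of the class II counts in each library. Levels below are library-scaled gene counts in CPM units, with library sizes set by TMM, a method that balances libraries by their bulk of genes; they are not divided by gene length, and each is compared with itself across libraries. H2-Aa, the alpha chain of I-A, stood at 1998 and 1854 CPM in SiglecFhi/CD101+ eosinophils, at 5481 and 1876 CPM in Siglec-Fint/CD101- eosinophils and at 9089, 15070, 4359 and 9977 CPM in resident eosinophils. Both SiglecFhi/CD101+ values lay below all 4 resident values, while the higher Siglec-Fint/CD101- library lay above the lowest resident one. H2-Ab1, the beta chain of I-A, stood at 1446 and 1293 CPM in SiglecFhi/CD101+, at 4775 and 4118 CPM in Siglec-Fint/CD101- and at 5997, 9723, 3681 and 6854 CPM in resident eosinophils. Here the Siglec-Fint/CD101- libraries lay inside the resident range and the SiglecFhi/CD101+ libraries below every other library. H2-Eb1, the beta chain of I-E, stood at 1423 and 1400 CPM in SiglecFhi/CD101+, at 4270 and 1942 CPM in Siglec-Fint/CD101- and at 5978, 9946, 2716 and 7621 CPM in resident eosinophils. Both SiglecFhi/CD101+ values were the lowest of the 8, and 1 Siglec-Fint/CD101- library lay above the lowest resident one. H2-Ea-ps, the I-E alpha gene that is not functional in the C57BL/6 strain, had 0 counts in every library.

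**Figure D1:**
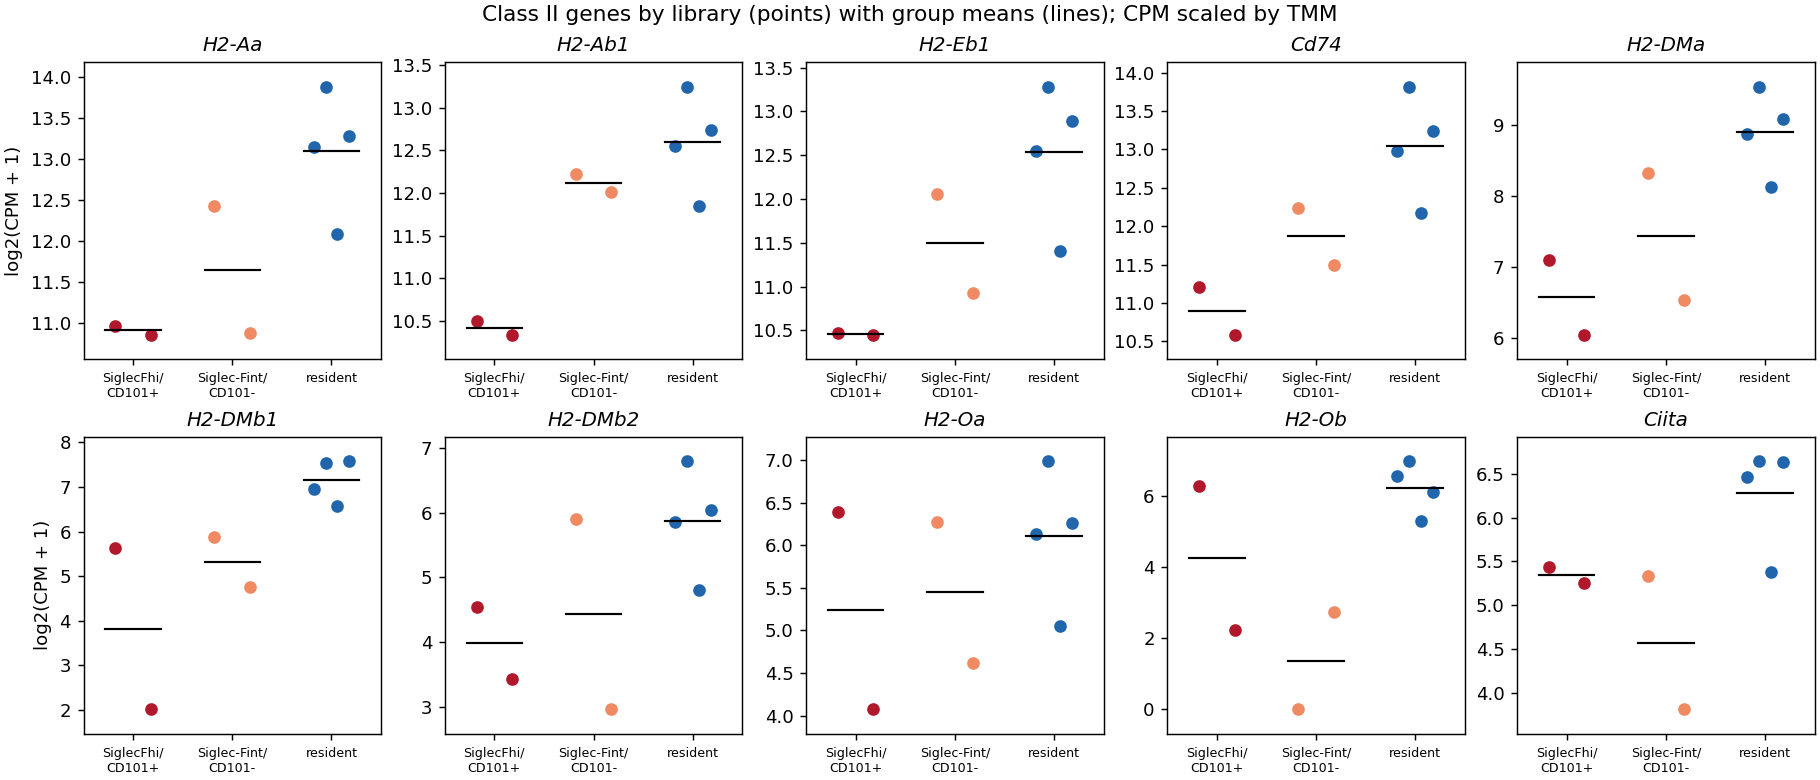
Level of each class II gene by library on the log2(CPM + 1) scale, with CPM scaled by TMM; points are the 2 SiglecFhi/CD101+, 2 Siglec-Fint/CD101- and 4 resident libraries and lines are group means. For H2-Aa, H2-Ab1, H2-Eb1, Cd74, H2-DMa, H2-DMb1 and H2-DMb2 both SiglecFhi/CD101+ points lie below all resident points. Such separation held for 27.4% of all genes tested. For H2-Oa, H2-Ob and Ciita 1 SiglecFhi/CD101+ point lies within the resident range.

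Against resident eosinophils, the fitted log2 fold change in SiglecFhi/CD101+ eosinophils was -2.26 ± 0.39 for H2-Ab1 (SE), with an adjusted p of 0.0682 in edgeR (quasi-likelihood, Benjamini-Hochberg adjustment over 11828 genes). The corresponding values were -2.32 ± 0.50 for H2-Aa (adjusted p = 0.11) and -2.22 ± 0.48 for H2-Eb1 (adjusted p = 0.11), so the chains stood 4.65 to 5.00-fold lower and none passed the threshold of 0.05. Without resident replicate 5, whose class II levels were the lowest of the resident libraries, the adjusted p of H2-Ab1 was 0.0237 in edgeR, and over the alternatives it ranged between 1.72e-11 with no filter on low counts and 0.523 with limma-voom. In Siglec-Fint/CD101- eosinophils the same contrast gave -1.39 for H2-Aa, -1.08 for H2-Eb1 and -0.56 for H2-Ab1, and the smallest adjusted p of any class II gene was 0.288. H2-Ab1 was 1.48-fold lower in Siglec-Fint/CD101- than in resident eosinophils, with an SE of 0.35 on the log2 scale. In bulk samples, fewer class II cells and less class II RNA per cell cannot be told apart.

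Cd74, the invariant chain, followed the chains it guards. It lies on chromosome 18 of GRCm38, at 60803848 to 60812652 on the plus strand. It stood at 2355 and 1539 CPM in SiglecFhi/CD101+ eosinophils, at 4831 and 2888 CPM in Siglec-Fint/CD101- eosinophils and at 8046, 14400, 4617 and 9648 CPM in resident eosinophils. SiglecFhi/CD101+ and resident values did not overlap, and 1 Siglec-Fint/CD101- library passed the lowest resident one. The log2 fold change against resident eosinophils was -2.24 ± 0.44 in SiglecFhi/CD101+ (SE, adjusted p = 0.108, edgeR) and -1.25 ± 0.42 in Siglec-Fint/CD101- eosinophils (SE). With both subsets joined it was -1.74 ± 0.33 (SE, adjusted p = 0.0787, edgeR), close to the -1.85 ± 0.37 of H2-Aa and the -1.65 ± 0.36 of H2-Eb1.

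H2-DMa and H2-DMb1 or H2-DMb2 pair to form H2-M, the peptide exchange factor. H2-DMa stood at 136 and 65.2 CPM in SiglecFhi/CD101+ eosinophils, at 322 and 91.9 CPM in Siglec-Fint/CD101- eosinophils and at 469, 746, 281 and 545 CPM in resident eosinophils. Both SiglecFhi/CD101+ values of H2-DMa lay below the resident range and 1 Siglec-Fint/CD101- value lay inside it. H2-DMb1 stood at 48.2 and 3.05 CPM in SiglecFhi/CD101+, at 57.4 and 26.1 CPM in Siglec-Fint/CD101- and at 123, 184, 93.9 and 189 CPM in resident eosinophils. Its 4 subset libraries all lay below all 4 resident libraries, as they did for 12.0% of all genes, and its lowest value rests on 5 counts. H2-DMb2 stood at 22.3 and 9.76 CPM in SiglecFhi/CD101+, at 58.9 and 6.83 CPM in Siglec-Fint/CD101- and at 57.0, 110, 27.1 and 65.1 CPM in resident eosinophils, so the 2 Siglec-Fint/CD101- libraries stood on both sides of the lowest resident one. For SiglecFhi/CD101+ against resident eosinophils the log2 fold changes were -2.34 ± 0.62 for H2-DMa, -2.52 ± 0.95 for H2-DMb1 and -2.01 ± 1.06 for H2-DMb2 (SE), with adjusted p of 0.143, 0.236 and 0.335 by edgeR. H2-DMb1 and H2-DMb2 are close paralogs: none of the 251 words of 50 bases in the last 300 bases of H2-DMb1 transcripts occurs in H2-DMb2, but 369 such words elsewhere do, so their split is uncertain for reads away from the 3′ end. Brd2 overlaps H2-DMa on the other strand by 3094 bases, and the strand setting of the counting is not given in the sources used here, so reads of the 2 genes may not be separable in that stretch.

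H2-Oa and H2-Ob form H2-O, the inhibitor of H2-M, which is known mainly from B cells and some dendritic cells. H2-Oa stood at 83.2 and 15.9 CPM in SiglecFhi/CD101+ eosinophils, at 76.3 and 23.6 CPM in Siglec-Fint/CD101- eosinophils and at 69.2, 126, 32.2 and 75.8 CPM in resident eosinophils. In each subset 1 library lay within the resident range and 1 below it. H2-Ob stood at 76.9 and 3.66 CPM in SiglecFhi/CD101+ eosinophils, at 0 and 5.59 CPM in Siglec-Fint/CD101- eosinophils and at 92.6, 124, 38.0 and 68.3 CPM in resident eosinophils. The 0 allows up to 2.18 CPM in that library (3 counts; counting error only), and the Siglec-Fint/CD101- libraries together held 9 H2-Ob counts, against 145 in a single SiglecFhi/CD101+ library. Against resident eosinophils H2-Ob had the lowest fitted value of the class II genes in Siglec-Fint/CD101-, at -4.81 ± 1.504 on the log2 scale, and stood at -1.0 ± 1.17 in SiglecFhi/CD101+ (SE). H2-Oa stood at -0.61 ± 0.88 in SiglecFhi/CD101+ and -0.60 ± 0.88 in Siglec-Fint/CD101- (SE), and its SiglecFhi/CD101+ value came to 0.035 without the second library of that group. Neither passed the test. For H2-Oa in both subsets, and for H2-Ob in SiglecFhi/CD101+, the 2 libraries lay further apart than their mean lay from the resident mean.

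Ciita, the transactivator of the class II promoters, lies on chromosome 16 of GRCm38 at 10480059 to 10528418. It stood at 42.4 and 37.2 CPM in SiglecFhi/CD101+ eosinophils, at 39.3 and 13.04 CPM in Siglec-Fint/CD101- eosinophils and at 87.4, 98.9, 40.7 and 98.8 CPM in resident eosinophils. Both Siglec-Fint/CD101- libraries lay below all resident ones, and 1 SiglecFhi/CD101+ library lay just above the lowest. The log2 fold changes against resident eosinophils were -1.03 ± 0.81 in SiglecFhi/CD101+ (SE, adjusted p = 0.517, edgeR) and -1.64 ± 0.84 in Siglec-Fint/CD101- eosinophils (SE). Dexi overlaps Ciita on the other strand, with 555 counts against 4062 for Ciita over the 8 libraries.

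Set against H2-Aa within each library, which removes the scaling between libraries, Cd74 and the beta chains had their highest proportions in the second Siglec-Fint/CD101- library. Per 100 H2-Aa counts, Cd74 had 83.0 to 118 counts in SiglecFhi/CD101+, 88.1 to 154 in Siglec-Fint/CD101- and 88.5 to 106 in resident eosinophils. H2-Eb1 had 71.2 to 75.5 counts in SiglecFhi/CD101+, 77.9 to 104 in Siglec-Fint/CD101- and 62.3 to 76.4 in resident eosinophils. H2-Ab1 had 69.8 to 72.4 counts in SiglecFhi/CD101+, 87.1 and 219 in Siglec-Fint/CD101- and 64.5 to 84.5 in resident eosinophils. For all 3 genes the upper value in Siglec-Fint/CD101- is that of its second library. Ciita had 2.12 and 2.01 counts per 100 H2-Aa counts in SiglecFhi/CD101+ eosinophils, with 95% counting intervals of 1.68 to 2.65 and 1.53 to 2.58 (Clopper-Pearson), against 0.716 and 0.695 in Siglec-Fint/CD101- and 0.656 to 0.990 in resident eosinophils. The SiglecFhi/CD101+ intervals lay above the highest bound of any other library, 1.06 in a Siglec-Fint/CD101- library. The intervals cover counting error only, the Ciita ratio was singled out after its values were seen, and it is given without a test. The H2-O genes stood apart in 1 SiglecFhi/CD101+ library: H2-Oa had 4.17 and 0.855 counts per 100 H2-Aa counts in SiglecFhi/CD101+, 1.39 and 1.26 in Siglec-Fint/CD101- and 0.740 to 0.834 in resident eosinophils. H2-Ob had 3.85 and 0.197 in SiglecFhi/CD101+, 0 and 0.298 in Siglec-Fint/CD101- and 0.684 to 1.02 in resident eosinophils. H2-DMa had 6.82 and 3.52 counts per 100 H2-Aa counts in SiglecFhi/CD101+, 5.88 and 4.90 in Siglec-Fint/CD101- and 4.95 to 6.44 in resident eosinophils, with overlapping groups.

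**Figure D2:**
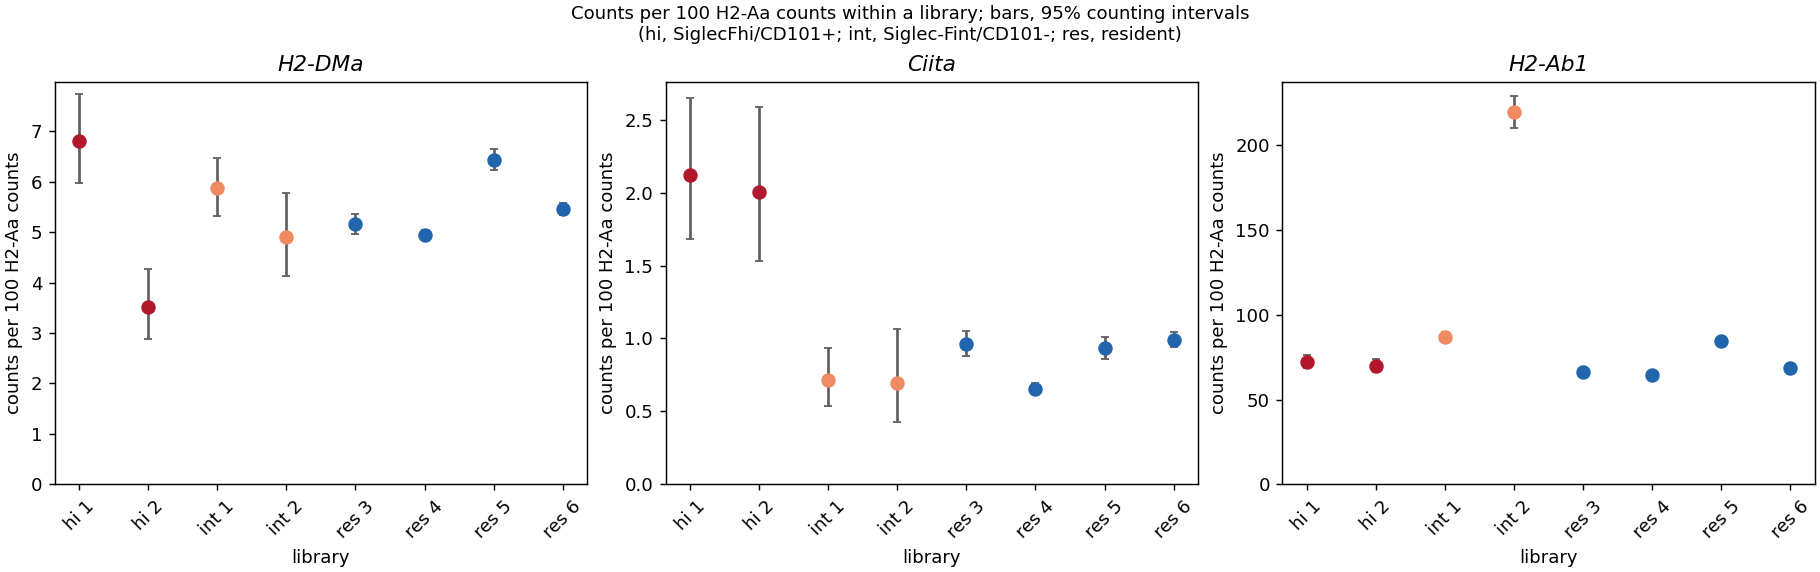
Counts of H2-DMa, Ciita and H2-Ab1 per 100 H2-Aa counts in each library; bars are 95% Clopper-Pearson counting intervals. Ciita lies at 2.01 and 2.12 in the SiglecFhi/CD101+ libraries and at 0.656 to 0.990 in the other 6, and H2-Ab1 reaches 219 in the second Siglec-Fint/CD101- library.

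Over all 4 comparisons, 0 of 10 class II genes passed an adjusted p of 0.05 in edgeR. Limma-voom also called 0 in each. DESeq2 called 1 in SiglecFhi/CD101+ against resident, H2-Ab1, where it called 940 of all 11828 genes tested. It also called 1 in Siglec-Fint/CD101- against resident, H2-Ob, where it called 737 of 11828 genes. The edgeR test called 0.0254% of all genes for SiglecFhi/CD101+ against resident and 0.0592% for Siglec-Fint/CD101- against resident. It called 0.0254% for both subsets against resident and 0.00845% for SiglecFhi/CD101+ against Siglec-Fint/CD101-. Few genes of any kind were therefore called by edgeR at this spread between libraries. Under an unadjusted p of 0.05, SiglecFhi/CD101+ eosinophils had 6 of 10 class II genes lower than resident eosinophils, where 13.1% of all genes were. The 6 were H2-Aa, H2-Ab1, H2-Eb1, Cd74, H2-DMa and H2-DMb1. In Siglec-Fint/CD101- against resident eosinophils, 5 of 10 were lower, where 13.8% of all genes were, and they were H2-Aa, H2-Eb1, Cd74, H2-DMa and H2-Ob. With both subsets joined, 7 of 10 were lower, where 21.0% of all genes were; H2-DMb2, H2-Oa and Ciita were not among them. The comparisons with resident eosinophils share the same 4 resident libraries. The class II genes also varied together. H2-Aa, H2-Ab1, H2-Eb1 and Cd74 had Pearson r of 0.873 to 0.984 with each other over the 8 libraries, and 0.856 to 0.973 with H2-DMa. Those chains and Cd74 ranked 1 to 17 by counts outside the mitochondrial genome, while the background holds genes of all levels tested. The counts of class II genes here and below are therefore not counts of separate observations and test no enrichment.

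Complete separation of the CPM values gave a plainer count. In SiglecFhi/CD101+ against resident eosinophils, 7 of 10 genes lay lower with no overlap, where 27.4% of all genes did. In Siglec-Fint/CD101- against resident eosinophils, 3 of 10 did, namely Ciita, H2-DMb1 and H2-Ob, against a background of 29.3%, which is close to it. With both subsets against resident eosinophils, 1 of 10 did, H2-DMb1, against a background of 12.0%, and the resident library with the lowest H2-Aa level, replicate 5, set the lower edge of the resident range for all 10 genes.

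The median log2 fold change of the 10 genes was -2.23 in SiglecFhi/CD101+ against resident eosinophils, beside -0.72 over all genes tested. It was -1.28 beside -0.997 in Siglec-Fint/CD101- against resident eosinophils and -1.70 beside -1.28 with both subsets joined. The class II values lay within the bulk of all genes tested. In SiglecFhi/CD101+ against resident eosinophils, 29.6 to 52.1% of all genes had a lower log2 fold change than the single class II genes. The share was 24.6 to 56.6% in Siglec-Fint/CD101- against resident eosinophils and 30.3 to 62.6% with both subsets joined. The medians above depend on single subset libraries. In Siglec-Fint/CD101- against resident eosinophils the class II median was -2.47 without the first Siglec-Fint/CD101- library and -0.76 without the second, and that of all genes was then -3.29 and -4.42. In SiglecFhi/CD101+ against resident eosinophils it was -2.56 without the first SiglecFhi/CD101+ library and -1.86 without the second, and that of all genes was then -3.15 and -2.12. In these fits with 1 library of a subset left out, the class II median lay above that of all genes. The median of all genes moved further from its value with all libraries than the class II median did. The subset libraries had counts for 7356 to 10834 genes, against 12700 to 15997 in resident libraries. The part of genes at 0 in the remaining library was not tested. All 10 genes were negative in each of the 3 comparisons with all libraries, and 63.9%, 66.9% and 75.4% of all genes were. The general shift moved with the scaling: with every library thinned to equal counts outside the mitochondrial genome, the median of all genes was -0.127 in SiglecFhi/CD101+ against resident eosinophils, and that of the class II genes -1.83. In that setting H2-Ab1 was called lower in SiglecFhi/CD101+ than in resident eosinophils, at -1.85 on the log2 scale (adjusted p = 0.0012, edgeR), and no other class II gene was. How many of all genes were called in that setting is not given here, so this call is not set against the background.

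**Figure D3:**
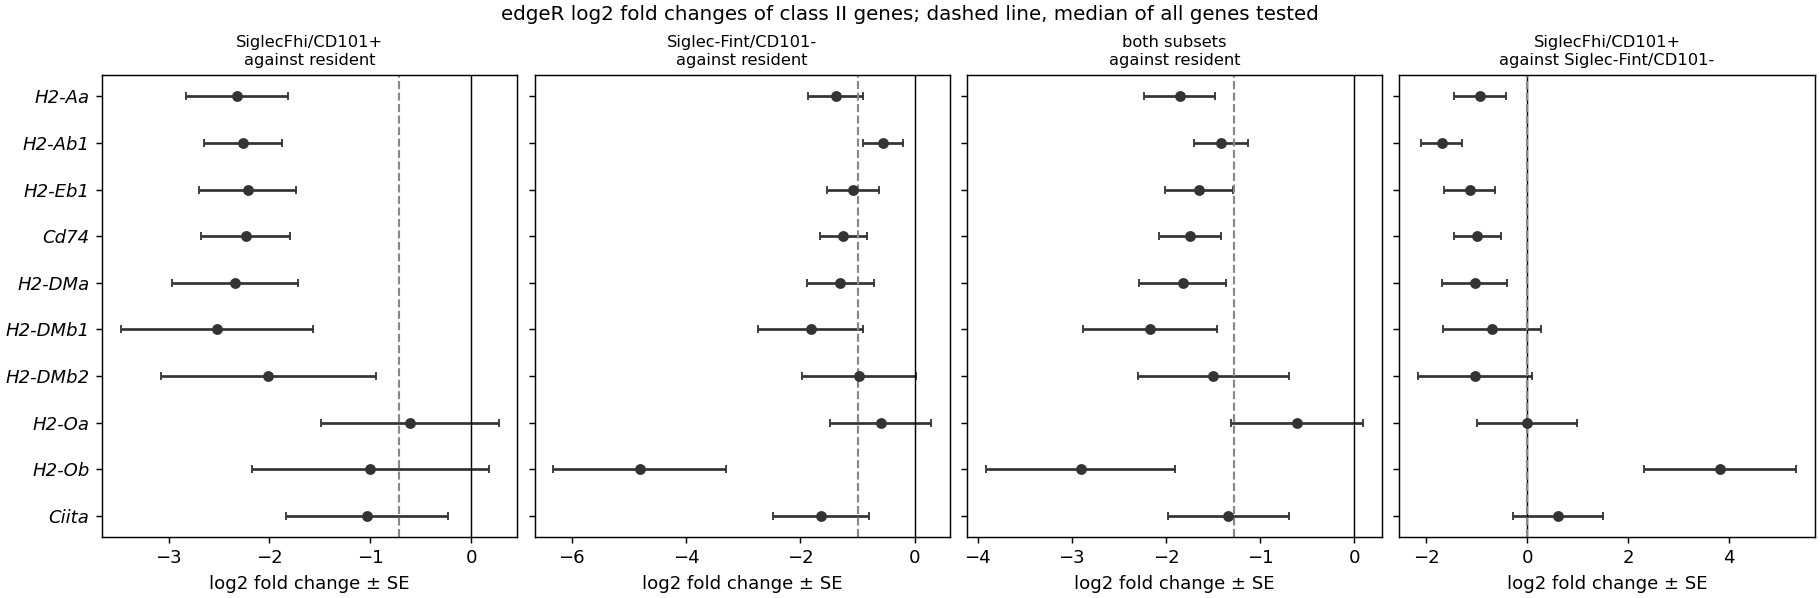
Fitted log2 fold change (± SE) of each class II gene in the 4 comparisons; the dashed line is the median of all 11828 genes tested. Against resident eosinophils, the chains, Cd74 and H2-DMa lie between -2.34 and -2.22 in SiglecFhi/CD101+, left of the dashed line at -0.72, and between -1.39 and -0.56 in Siglec-Fint/CD101-, around the dashed line at -0.997.

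Between the subsets, the fitted values of the chains and Cd74 were below those of Siglec-Fint/CD101- in SiglecFhi/CD101+ eosinophils, and none passed the test. On the log2 scale the difference was -1.70 ± 0.41 for H2-Ab1 (SE, adjusted p = 0.172, edgeR), and H2-Eb1, Cd74 and H2-Aa had -1.14, -0.99 and -0.93. Without the first Siglec-Fint/CD101- library the H2-Aa difference came to -0.01 and the median of the 10 genes to 0.04, from -0.96, so these values rest on that library, whereas H2-Ab1 stayed between -1.89 and -1.64 when each library was left out. Under an unadjusted p of 0.05, H2-Ab1, H2-Eb1 and Cd74 were lower, 3 of 10, where 7.96% of all genes were, and the same 3 had no overlap between the subsets, where 11.9% of all genes lay lower in that way. H2-Ob was the 1 gene higher at an unadjusted p of 0.05, where 9.98% of all genes were, at 3.81 ± 1.505 (SE, adjusted p = 0.244, edgeR), and that value rests on the 145 counts of 1 SiglecFhi/CD101+ library. H2-Oa stood at -0.01 ± 0.99 and Ciita at 0.61 ± 0.90 (SE), neither distinguishable from no difference at this spread.

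Genes that act around the class II molecules were grouped in 6 lists, and no member of any list passed the adjusted threshold in any comparison, where 0.0254% of all genes were called with both subsets against resident eosinophils. The values that follow are for that comparison, in which 21.0% of all genes were lower at an unadjusted p of 0.05. In the list for the invariant chain and antigen processing in endosomes, not all of them proteases, 4 of 14 tested genes were lower at an unadjusted p of 0.05, near the 21.0% of all genes. The list median was -0.80 beside -1.28 over all genes. Cst3, cystatin C, an inhibitor of cysteine cathepsins, had -1.41 ± 0.32 (SE, adjusted p = 0.0993, edgeR), with 680 and 756 CPM in SiglecFhi/CD101+, 1925 and 882 CPM in Siglec-Fint/CD101- and 1638 to 3389 CPM in resident eosinophils. Sppl2a, the protease that clears the last invariant chain stub from the membrane, stood at 14.3 and 17.7 CPM in SiglecFhi/CD101+, 0 and 0.621 CPM in Siglec-Fint/CD101- and 21.4 to 38.6 CPM in resident eosinophils. Its subset values lay below all resident values, and those of Siglec-Fint/CD101- rest on at most 1 count. Ctsz, a cathepsin, had -1.34 ± 0.50 (SE). Asph stood at 1.59 and 1.22 CPM in SiglecFhi/CD101+, 0.727 and 0.621 CPM in Siglec-Fint/CD101- and 3.65 to 22.9 CPM in resident eosinophils.

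In the list of co-stimulation and T cell contact, 5 of 11 tested genes were lower at an unadjusted p of 0.05, where 21.0% of all genes were, and the list median was -1.61. Cd83, a surface protein that keeps class II molecules on the cell, had -1.80 ± 0.42 (SE, adjusted p = 0.1, edgeR), with 63.6 and 73.2 CPM in SiglecFhi/CD101+, 108 and 115 CPM in Siglec-Fint/CD101- and 168 to 428 CPM in resident eosinophils. Its subset values lay below all resident values. Cd86, a ligand of CD28 on T cells, had -2.33 ± 0.66 (SE, adjusted p = 0.106, edgeR), with 9.54 and 6.71 CPM in SiglecFhi/CD101+, 34.2 and 41.0 CPM in Siglec-Fint/CD101- and 33.9 to 111 CPM in resident eosinophils. Ccl22 and Ccl17, chemokines that draw CCR4+ T cells, had -1.76 ± 0.55 and -1.61 ± 0.64 (SE).

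The transcription factors that bind or support class II promoters had 4 of 9 tested genes lower at an unadjusted p of 0.05, where 21.0% of all genes were, with a list median of -2.03. Spi1, which encodes the myeloid factor PU.1, had -1.16 ± 0.44 (SE), with 51.4 and 154 CPM in SiglecFhi/CD101+, 257 and 188 CPM in Siglec-Fint/CD101- and 184 to 440 CPM in resident eosinophils. Nfyb, a subunit of the Y box factor NF-Y, was at 0 CPM in 3 subset libraries and at 0.621 CPM in a Siglec-Fint/CD101- library, against 2.38 to 27.9 CPM in resident eosinophils. Nfya, another subunit, was at 0 CPM in 3 subset libraries and at 7.27 CPM in the other, against 3.16 to 25.4 CPM in resident eosinophils. Most of these subset values lie under the counting limit, 1.59 to 2.18 CPM for 3 counts. Ctcf, which organises the class II locus, differed between the subsets, with 8.48 and 15.9 CPM in SiglecFhi/CD101+, 0 and 0.621 CPM in Siglec-Fint/CD101- and 7.52 to 23.8 CPM in resident eosinophils, so its SiglecFhi/CD101+ values lay inside the resident range.

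The list of trafficking and turnover had 3 of 12 tested genes lower at an unadjusted p of 0.05, near the 21.0% of all genes, and a median of -0.84. March1 encodes the ubiquitin ligase that sends class II molecules to degradation in dendritic and B cells, and it split between the subsets, with 21.7 and 132 CPM in SiglecFhi/CD101+, 0.727 and 0.621 CPM in Siglec-Fint/CD101- and 22.4 to 51.9 CPM in resident eosinophils. Myo1e, a myosin, split the other way, with 2.12 and 0.610 CPM in SiglecFhi/CD101+, 119 and 114 CPM in Siglec-Fint/CD101- and 27.5 to 67.9 CPM in resident eosinophils. The low subset of each contrast had 1 to 4 counts a library, and the other 41 to 217. March8, a related ubiquitin ligase, stood at 0.530 and 0.610 CPM in SiglecFhi/CD101+, 0 CPM in both Siglec-Fint/CD101- libraries and 3.15 to 11.5 CPM in resident eosinophils. Cd9, a tetraspanin, had -0.83 ± 0.50 (SE).

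Interferon gamma, the classical inducer of Ciita, signals through a list of which 0 of 9 tested genes were lower or higher at an unadjusted p of 0.05 by edgeR, with a median of -0.47. Its smallest p belonged to Usf2, at -1.48 ± 1.05 (SE, adjusted p = 0.416, edgeR), followed by Irf1 at -1.17 ± 1.08 and Irf2 at -0.57 ± 0.82 (SE). Of the other genes of the class II locus, 1 of 5 tested was lower at an unadjusted p of 0.05, beside 21.0% of all genes. It was Brd2, a chromatin reader that overlaps H2-DMa, at -2.58 ± 0.76 (SE, adjusted p = 0.107, edgeR). The proteasome subunit Psmb9 had 0.54 ± 0.75, and the peptide transporters Tap1 and Tap2, which serve class I, had -0.67 ± 1.18 and -0.85 ± 1.24 (SE).

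**Figure D4:**
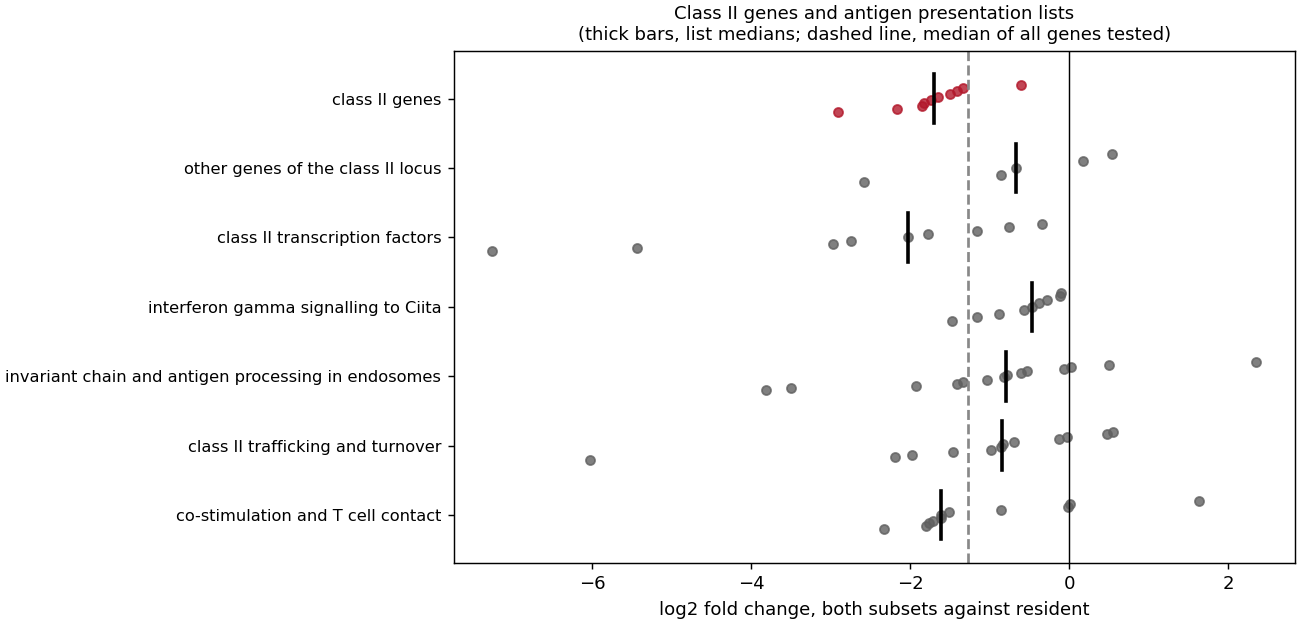
Fitted log2 fold change of both subsets against resident eosinophils for the 10 class II genes (top row) and the tested genes of 6 antigen presentation lists; thick bars are list medians and the dashed line is the median of all genes tested, -1.28. The class II genes centre at -1.70, the transcription factors at -2.03, the co-stimulation list at -1.61 and the interferon gamma list at -0.47.

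The genes whose levels most resembled the mean log2 CPM of H2-Aa, H2-Ab1, H2-Eb1 and Cd74 over the 8 libraries were Tmsb4x, Rpl36al, Hnrnpll, Tnip3, Gpr132, Rpl22, Rpl23a and Cdkn1a, with Pearson r of 0.985 to 0.959. The median r of the 5740 eligible genes was 0.284, and 68 exceeded 0.9. The points share libraries, depth and scaling, and the groups form clusters, so r is a measure of likeness and carries no p. Tmsb4x, an actin-binding thymosin, stood at 537 and 545 CPM in SiglecFhi/CD101+, at 1045 and 792 CPM in Siglec-Fint/CD101- and at 772 to 1687 CPM in resident eosinophils. Hnrnpll, a splicing factor, had a steeper course, with 1.59 and 1.22 CPM in SiglecFhi/CD101+, 12.4 and 4.35 CPM in Siglec-Fint/CD101- and 23.4 to 82.6 CPM in resident eosinophils. Among the class II genes themselves, H2-DMa had r = 0.958 with that mean, H2-DMb2 0.876, H2-DMb1 0.838, Ciita 0.722, H2-Oa 0.698 and H2-Ob 0.362.

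Markers of other class II bearing cells moved with the class II genes in part. The 14 dendritic cell markers summed to 213 to 265 CPM in SiglecFhi/CD101+, 449 to 539 CPM in Siglec-Fint/CD101- and 504 to 1252 CPM in resident eosinophils. Mgl2, Itgax and Ccl22 had the highest values of the 14 in every resident library, so the sums rest largely on few genes. Mgl2 stood at 10.1 and 80.5 CPM in SiglecFhi/CD101+, 218 and 96.9 CPM in Siglec-Fint/CD101- and 190 to 520 CPM in resident eosinophils. The order of the groups by these sums was that of the class II share. Within each subset, though, the library with the higher class II share had the lower sum. Among resident libraries, replicate 4 was highest and replicate 5 lowest in both. None of the 14 was at 0 in every resident or SiglecFhi/CD101+ library, 1 was at 0 in both Siglec-Fint/CD101- libraries, and none passed the adjusted threshold in edgeR, with 5 of 14 lower at an unadjusted p of 0.05 for both subsets against resident eosinophils, where 21.0% of all genes were. Flt3, a receptor of dendritic cell progenitors, stood at 0.530 and 0 CPM in SiglecFhi/CD101+, 0 and 28.6 CPM in Siglec-Fint/CD101- and 6.25 to 23.9 CPM in resident eosinophils. Zbtb46, a factor of conventional dendritic cells, stood at 47.7 and 13.4 CPM in SiglecFhi/CD101+, 73.4 and 39.7 CPM in Siglec-Fint/CD101- and 14.7 to 52.8 CPM in resident eosinophils. The groups overlapped for Zbtb46, as they did for Ccr7, the receptor of migrating dendritic cells, whose log2 fold change for both subsets against resident eosinophils was 0.07 ± 0.67 (SE). Itgax, the CD11c integrin, stood at 2.65 and 30.5 CPM in SiglecFhi/CD101+, 2.91 and 116 CPM in Siglec-Fint/CD101- and 91.0 to 348 CPM in resident eosinophils. Of the 14, Ccl22 is also in the co-stimulation list. The part of dendritic cells in the class II levels was not tested.

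Other marker lists had other orders. The 13 B cell markers summed to 143 to 634 CPM in SiglecFhi/CD101+, 463 to 879 CPM in Siglec-Fint/CD101- and 102 to 258 CPM in resident eosinophils, and 1 of them was at 0 in both SiglecFhi/CD101+ libraries, 2 in both Siglec-Fint/CD101- libraries and 0 in all resident libraries. The 15 macrophage and monocyte markers summed to 382 to 467 CPM in SiglecFhi/CD101+, 446 to 1303 CPM in Siglec-Fint/CD101- and 534 to 1021 CPM in resident eosinophils, with none at 0 throughout a group. The 9 markers of type 2 alveolar epithelium, a cell type that also carries class II in the mouse lung, summed to 2112 to 3309 CPM in SiglecFhi/CD101+ and 2815 to 3171 CPM in Siglec-Fint/CD101-. In resident replicates 3, 4, 5 and 6 they summed to 1085, 311, 3952 and 510 CPM. All subset libraries thus lay above every resident library but replicate 5. Their highest value was in the resident library with the lowest class II share, replicate 5, at 4.86% of counts outside the mitochondrial genome. The part of these cells in the class II levels was not tested. Eosinophil markers summed to 149 to 454 CPM in SiglecFhi/CD101+, 168 to 296 CPM in Siglec-Fint/CD101- and 188 to 464 CPM in resident eosinophils, with overlapping groups. Of these 13 markers, 5 were at 0 in both SiglecFhi/CD101+ libraries, 5 in both Siglec-Fint/CD101- libraries and 1 in all resident libraries.

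**Figure D5:**
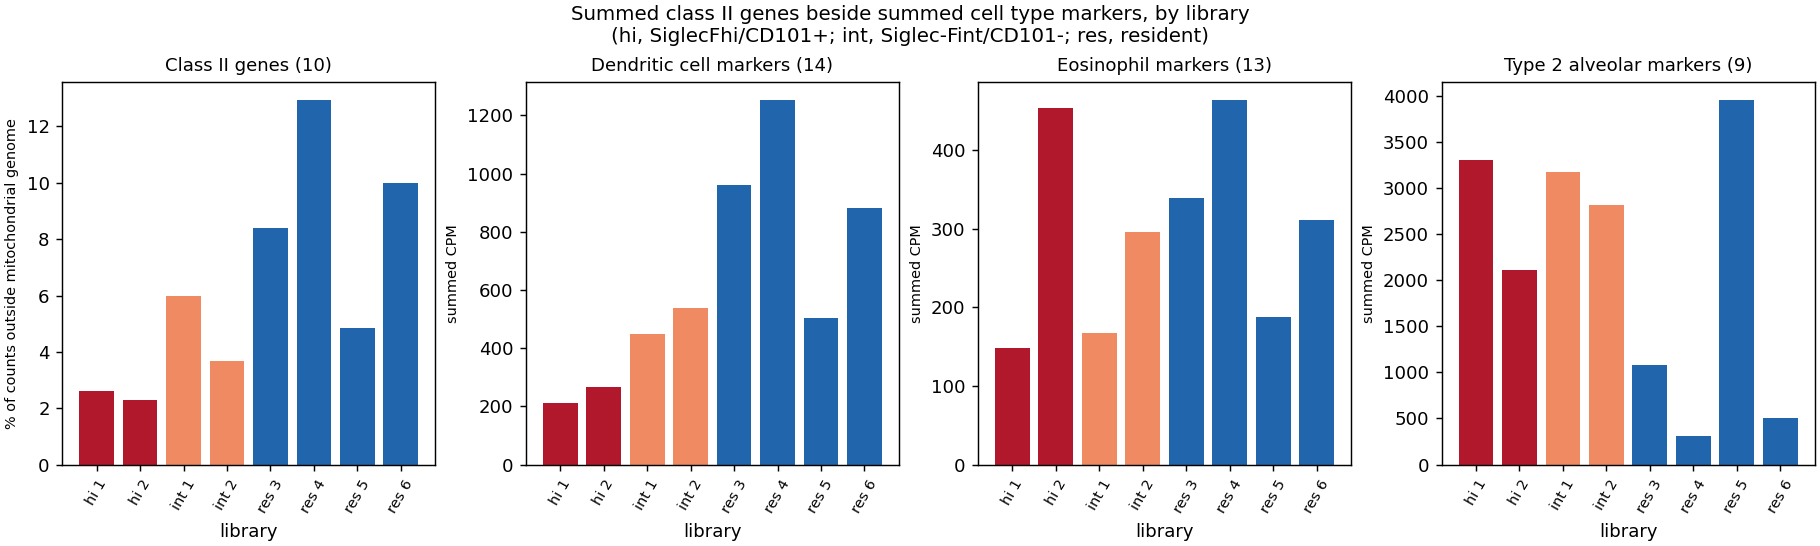
Class II genes as a percentage of counts outside the mitochondrial genome (left) and summed CPM of dendritic cell, eosinophil and type 2 alveolar markers in each library; bars start at 0. The class II share is 2.29 to 2.61% in SiglecFhi/CD101+, 3.68 to 5.99% in Siglec-Fint/CD101- and 4.86 to 12.9% in resident libraries. The dendritic cell markers follow the same order of groups, with overlap between Siglec-Fint/CD101- and resident libraries. Within each subset, the library with the higher class II share has the lower dendritic cell sum.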

How the data were processed

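Per the labels' protocols, CEL-Seq libraries were sequenced on an Illumina NextSeq instrument. The deposited values are whole-number counts per Ensembl gene, 1 file per library. The submitters' processing notes list FastQC 0.11.5, Trim Galore, cutadapt 1.10, TopHat2 2.1.0, Bowtie2 2.2.6, HTSeq 0.6.1 and DESeq2 1.28.0; the genome build, strand setting and use of molecular identifiers are not stated in those notes or the labels, so counts may include PCR copies. Symbols and positions came from GENCODE vM21 (GRCm38), which named 54409 of 54446 rows. Genes were filtered with filterByExpr and tested with edgeR 4.0.16 (R 4.3.3; TMM, robust quasi-likelihood, two-sided) in a group-means fit over 8 libraries, at an adjusted p of 0.05; the common coefficient of variation was 1.12. The code was tested on simulated counts. Alternatives used DESeq2 1.42.0 and limma 3.58.1. The members and lists were chosen with earlier results of these data known. All 10 members are named, with up to 4 genes of each pathway list by smallest p for both subsets against resident, and the 8 genes most correlated with the chains and Cd74; other named genes were chosen after their values were seen.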

Additional observations from a re-analysis of the deposited data

How the results depend on the processing

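All 10 class II genes kept a negative sign against resident eosinophils in every alternative, except H2-Oa in SiglecFhi/CD101+ (below). The number of class II genes past the threshold was 0 in the main analysis and varied as follows. For SiglecFhi/CD101+ against resident it was 2 with library totals alone (H2-Ab1 and Cd74), where 7 of all 11828 genes tested passed. With mitochondrial-genome genes removed it was 1, where 4 of 11269 genes passed, and with DESeq2 1, where 940 of 11828 did. With no filter on low counts it was 5, where 370 of 21197 genes passed. It was 1 with libraries thinned to equal counts outside the mitochondrial genome. It was also 1 without resident replicate 5 (H2-Ab1, adjusted p = 0.0237, edgeR). For Siglec-Fint/CD101- against resident it was 1 with DESeq2 (H2-Ob, adjusted p = 0.0249), where 737 of 11828 genes passed, and 4 with no filter. For both subsets against resident it was 7 with library totals alone, and 5 with no filter. With library totals alone 773 of 11828 genes passed, against 3 in the main analysis, and the median of all genes moved to -2.09. For SiglecFhi/CD101+ against Siglec-Fint/CD101- it was 1 with thinning and 1 with no filter. Calls given here without a count over all genes are not set against the background, so they say nothing about class II genes in particular. The cause of these shifts was not tested.

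The labels do not say whether equal replicate numbers pair the samples of the subsets. The deviations of equal numbers had r = 0.007, and with 2 libraries per group this value cannot decide it. With the replicate block for SiglecFhi/CD101+ against Siglec-Fint/CD101-, 0 class II genes passed and H2-Ab1 had -1.70 (adjusted p = 0.158, edgeR). In that comparison H2-Oa turned positive, at 0.066 with RLE normalization, 0.038 with mitochondrial-genome genes removed, 0.067 with DESeq2, 0.025 with at least 20 counts in 2 libraries, 0.069 with thinning and 0.142 in a fit of the 2 groups alone. When each library was left out, the values ranged from -1.72 to 1.02 for H2-Oa, -1.76 to 0.082 for H2-DMa, -3.83 to 0.137 for H2-DMb1, -1.97 to 1.18 for H2-DMb2 and -0.066 to 1.56 for Ciita. For H2-Oa in SiglecFhi/CD101+ against resident they ranged from -2.34 to 0.035. Depth limits the loading genes and Ciita, whose subset levels rest on 0 to 443 counts a library.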

Other observations

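Some genes that class II bearing cells usually transcribe were listed at or near 0 in all libraries. Irf8, an interferon regulatory factor of dendritic cells and B cells, had 0 counts in each of the 8 libraries. Ctsd, a cathepsin of most cells, had 1 count in 1 resident library and 0 in the other 7. H2-Eb2, a class II beta gene of low expression, had 0 counts in the 4 subset libraries and 8, 10, 0 and 2 counts in resident eosinophils.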
